A study of Mus musculus with 12 samples.

Results

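The 38 genes described here are the homeostatic and general microglial genes of a mouse hippocampus RNA-seq count table. They were chosen by symbol, from a written list of 19 genes of the homeostatic microglial signature and 19 genes that microglia share with other macrophages. The rule uses the symbols alone, though the list was drawn up with earlier results of these data known. All 38 were among the 54427 rows of the table. All 38 also passed edgeR's filter on low counts, which kept 17227 genes.

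The table holds 12 libraries, 3 in each of 4 groups. 5xFAD;Ulk1OV mice carry the 5xFAD genotype and ULK1 overexpression, 5xFAD mice the first alone, Ulk1OV mice the second alone, and WT mice neither. As commonly used, the name 5xFAD stands for a transgenic amyloid model in which neurons express mutant human APP from the Thy1 promoter. Ulk1 encodes a kinase that starts autophagy. The labels give neither the construct behind the overexpression nor the cells that carry it, and age, sex and whether a library is 1 animal or a pool are not given either. P-values therefore reflect only how far these libraries spread. The design sets both genotypes against their controls, which leaves the 5xFAD effect measurable without and with Ulk1OV.

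Microglia are the resident macrophages of the brain parenchyma. In the undisturbed brain they depend on CSF1R signalling to survive and on TGF-beta signalling to keep a typical gene signature, which includes the ADP receptor gene P2ry12, Tmem119, the fractalkine receptor gene Cx3cr1, Sall1 and Olfml3. Near amyloid plaques microglia are known to lower part of this signature and to switch on lipid-handling, lysosomal and phagocytic genes.

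Library totals were 16149992 to 18547132 counts. Markers of brain tissue were present: the summed level of 10 neuronal genes was 8663 to 11705 CPM (counts scaled to library size by TMM), of 8 astrocyte genes 6159 to 8212 CPM and of the 38 microglial genes 872 to 1112 CPM. Ulk1 ran from 84.6 to 102 CPM in the 6 libraries with the Ulk1OV label, against 63.5 to 86.3 CPM in the 6 without it, so the ranges overlapped. Replicate 3 of the group labelled 5xFAD;Ulk1OV, called the App-low library here, did not match that label. App stood at 1310.2 CPM in it, at 2201 to 2667 CPM in the remaining 5 libraries labelled 5xFAD and at 1241 to 1493 CPM in the 6 that were not. Prnp, the prion protein gene, gave the same order, with 954 CPM in that library, 2067 to 2510 CPM in the other 5 and 900.1 to 1119 CPM in the 6 without the label. Higher Prnp is not a known feature of the Thy1-driven line and the labels name no promoter, so which line was used was not settled. The cause of the Prnp difference was not tested. Values without the App-low library are given where stated, and all other values include it.

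Of the 38 genes, 4 (10.5%) were called in at least 1 of 6 comparisons, P2ry12, Mertk, Rgs10 and Cd53, beside 13.9% of all genes tested. P2ry12 lies at chr3:59216272-59262871 and Cd53 at chr3:106759921-106790149, Mertk at chr2:128698956-128802894 and Rgs10 at chr7:128373621-128418758, in GRCm38 as annotated by GENCODE M21. Their promoter windows, 250 bases before to 50 after the start of a RefSeq transcript in GRCm38.p6, are shown because these 4 genes carry the calls. They lie at chr3:59262936-59263235 (minus strand), chr3:106790100-106790399 (minus strand), chr2:128698665-128698964 (plus strand) and chr7:128418123-128418422 (minus strand), and each reads 5′ to 3′ on the strand of its gene. Capitals mark matches, on either strand, to the searched motifs GAGGAAGT and GAGGAA (cores bound by the macrophage factor PU.1), GGAANNGAA (a composite bound by PU.1 with IRF factors), TGTGGTT (bound by RUNX factors) and CAGCTG (an E-box).
P2ry12: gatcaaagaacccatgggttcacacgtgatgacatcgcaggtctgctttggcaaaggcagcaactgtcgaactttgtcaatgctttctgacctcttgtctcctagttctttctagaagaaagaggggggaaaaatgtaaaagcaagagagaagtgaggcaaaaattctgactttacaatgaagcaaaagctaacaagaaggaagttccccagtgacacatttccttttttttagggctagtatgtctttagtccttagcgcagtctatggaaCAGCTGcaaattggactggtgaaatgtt
Cd53: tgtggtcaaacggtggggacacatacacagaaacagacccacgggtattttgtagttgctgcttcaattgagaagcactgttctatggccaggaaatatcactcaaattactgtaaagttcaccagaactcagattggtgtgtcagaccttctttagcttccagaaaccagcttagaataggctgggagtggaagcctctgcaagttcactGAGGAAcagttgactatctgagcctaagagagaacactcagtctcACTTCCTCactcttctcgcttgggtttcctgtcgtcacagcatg
Mertk: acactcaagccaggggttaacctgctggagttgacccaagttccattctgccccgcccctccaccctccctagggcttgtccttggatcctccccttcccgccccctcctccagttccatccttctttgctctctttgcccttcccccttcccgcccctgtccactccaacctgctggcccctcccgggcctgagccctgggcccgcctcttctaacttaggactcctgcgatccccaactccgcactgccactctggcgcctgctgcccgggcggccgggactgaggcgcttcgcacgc
Rgs10: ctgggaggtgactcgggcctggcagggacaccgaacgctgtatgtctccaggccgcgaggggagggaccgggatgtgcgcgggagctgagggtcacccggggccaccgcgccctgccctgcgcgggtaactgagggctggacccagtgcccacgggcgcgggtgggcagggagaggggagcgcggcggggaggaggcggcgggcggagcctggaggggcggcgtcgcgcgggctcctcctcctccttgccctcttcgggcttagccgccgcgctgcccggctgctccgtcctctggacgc

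The windows of P2ry12 and Cd53 held 42.3% and 46.3% G and C, and those of Mertk and Rgs10 66.00% and 76.00%. The P2ry12 window had 1 CAGCTG, 22 bases after the start. In the Cd53 window GAGGAAGT stood on the opposite strand, with GAGGAA inside it, and a further GAGGAA stood before the start. The Mertk and Rgs10 windows held none of the 5 motifs. Windows were found for 30 of the 38 genes, 38 windows in all. GAGGAA was present in 18 of these 38 (47.4%), against 28.3% of all 32851 windows, CAGCTG in 9 (23.7%, against 16.3%) and GAGGAAGT in 2 (5.26%, against 3.20%). TGTGGTT was in 3 (7.89%, against 5.27%) and GGAANNGAA in 2 (5.26%, against 8.24%). These are matches of letters, not measured binding.

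Levels were compared between genes as CPM per kilobase of the principal transcript, averaged over 12 libraries. Rgs10, an inhibitor of G-protein signalling, was highest at 36.6. Csf1r, the receptor for CSF1 and IL-34, followed at 26.3, then P2ry12 at 25.3, the integrin subunit gene Itgb5 at 23.6, the selectin ligand gene Selplg at 22.5, Fcer1g at 21.02 and Laptm5 at 20.98. At the low end stood Ptprc, which encodes CD45, at 1.18 and the transcription factor gene Runx1 at 0.329. Along this order, only 2 of 37 neighbouring pairs had ranges over the libraries that did not overlap, Rgs10 above Csf1r and Ptprc above Runx1. The ranges of the other 35 pairs overlapped. Compared within each library, 3 of the 37 pairs kept the same order in all 12 libraries, these 2 and Gpr34 above Cd53. Counts per library ran from 19 for Runx1 to 2449 for Csf1r, and 8 of the 38 had at least 1 library under 100 counts. The coefficient of variation within groups had a median of 15.2% over the members (6.81% to 28.8%), against 12.1% over the 12146 tested genes in their range of CPM.

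**Figure D1:**
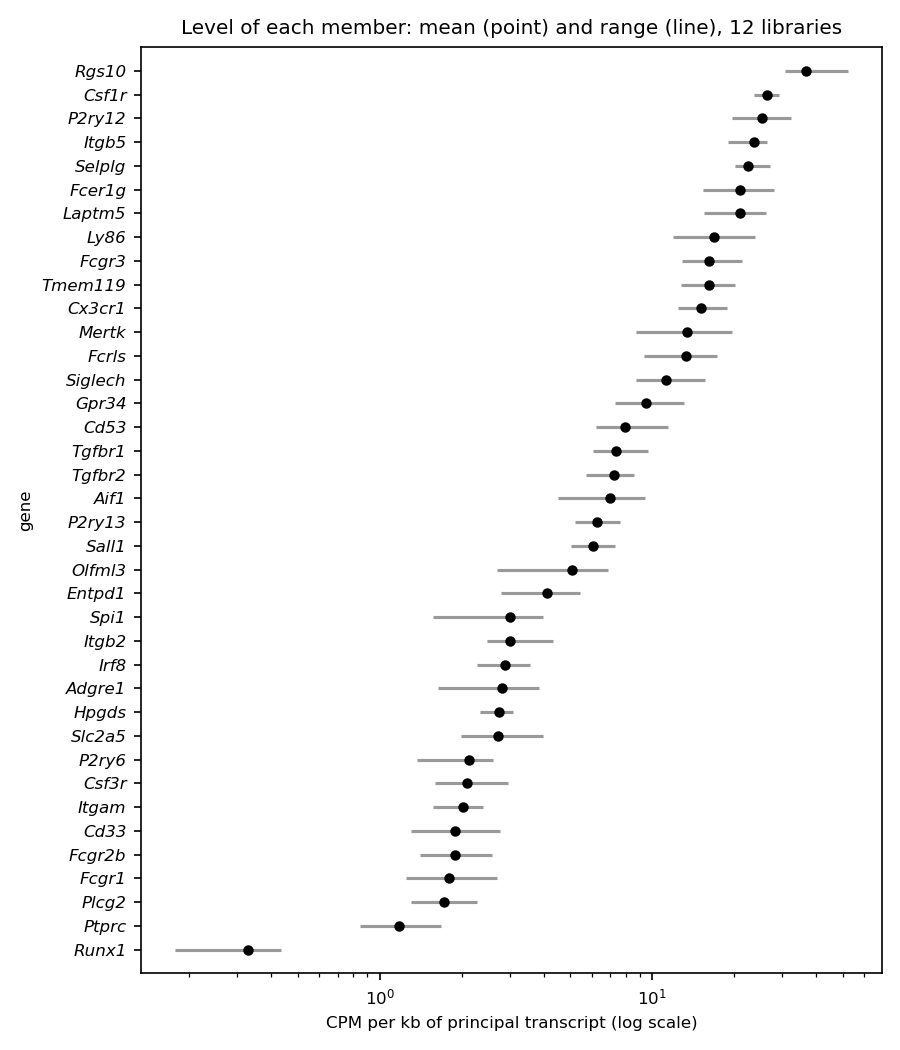
Level of each of the 38 genes as CPM per kilobase of principal transcript on a log axis, with the mean over 12 libraries as a point and the range as a line. Rgs10 stands highest at 36.6 and Runx1 lowest at 0.329, and most neighbours overlap.

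Calls are adjusted p under 0.05 in the quasi-likelihood test of edgeR, adjusted by Benjamini and Hochberg's method over all 17227 genes, and effects are log2 fold changes ± SE. In 5xFAD against WT none of the 38 genes was called, and neither was any other gene (0% of 17227, with 2139 at an unadjusted p under 0.05 by edgeR and 136 called by DESeq2). Among the members 6 (15.8%) reached an unadjusted p below 0.05, beside 12.4% of all genes, and 0 were called by DESeq2, beside 0.43%. All DESeq2 shares of genes are over the 31620 genes to which it gave a p-value, without the filter on low counts. All 38 members passed that filter, so member and gene shares by DESeq2 are not on like sets. Their median log2 fold change was 0.12, beside 0.0028 for all genes tested, and 25 of 38 were above 0. In bulk tissue, a different number of microglia and a different amount of RNA per microglial cell cannot be told apart. The libraries of 3 members did not overlap between the groups, those of Cd53, Laptm5 and Hpgds, each higher in 5xFAD (7.89%, beside 10.5% of all genes not overlapping and higher). In either direction 19.5% of all genes did not overlap there. This share was not taken for the other comparisons, so non-overlap of single genes in them is description only. With the 5xFAD effect averaged over both backgrounds, again 0% of genes and 0 members were called (0 members at an unadjusted p under 0.05, beside 802 genes or 4.66%, and 0 members called by DESeq2, beside 16 genes or 0.0506%). The members' median was 0.061, beside -0.00081, and 0.083 without the App-low library, beside -0.0023.

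Against Ulk1OV, 5xFAD;Ulk1OV libraries gave calls for 2 members, P2ry12 and Mertk, both lower (5.26% of the 38, beside 6.1% of all genes, 632 up and 419 down). In Ulk1OV against WT, 1 member was called, Rgs10, higher (2.63%, beside 5.17% of all genes, 368 up and 523 down). Between 5xFAD;Ulk1OV and 5xFAD no member was called, beside 0.0464% of all genes, which is 8 genes, while 5 members (13.2%, beside 17.4%) had an unadjusted p under 0.05 by edgeR and 2 members, P2ry12 and Tgfbr1, were called by DESeq2 (5.26%, beside 2.25%). The interaction, the 5xFAD effect with Ulk1OV minus the 5xFAD effect without it, was called for 2 members, P2ry12 and Cd53, both negative (5.26%, beside 12.8% of all genes, 1171 positive and 1026 negative). At an unadjusted p under 0.05 the members numbered 6 in 5xFAD;Ulk1OV against Ulk1OV (15.8%, beside 24.8% of all genes), 9 in Ulk1OV against WT (23.7%, beside 24.1%) and 13 in the interaction (34.2%, beside 29.4%). DESeq2 called 4 (10.5%), 3 (7.89%) and 4 (10.5%) in that order, beside 1994 (6.31%), 1843 (5.83%) and 2878 (9.1%) of its 31620 genes. Those 31620 include genes of low count, and a DESeq2 share over the filtered genes was not taken. Without the App-low library 1 of the 38 was called in 5xFAD;Ulk1OV against Ulk1OV (Mertk, 2.63%), beside 1579 of 17603 genes. In Ulk1OV against WT 2 were then called (Mertk and Rgs10, 5.26%), beside 1183 genes. The interaction was then called for 2 (Mertk and P2ry12, 5.26%), beside 2539 genes. Calls fell to 0 genes in 5xFAD;Ulk1OV against Ulk1OV without 5xFAD;Ulk1OV replicate 1 or 2 or Ulk1OV replicate 3, and in Ulk1OV against WT without Ulk1OV replicate 3 or WT replicate 1 or 2.

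Members' medians were -0.041 in 5xFAD;Ulk1OV against Ulk1OV, 0.014 in Ulk1OV against WT, -0.12 in 5xFAD;Ulk1OV against 5xFAD and -0.15 in the interaction. All genes tested had medians of -0.013, 0.0033, -0.00099 and -0.0092 in the same order. Without the App-low library, members' medians were 0.043, 0.0040, -0.080 and -0.12 in that order, beside -0.00031, -0.0080, 0.0017 and 0.0078 for all genes. These comparisons share groups, so their values stand side by side and are not independent. Of the 38 genes, 17 had a 5xFAD effect above 0 without Ulk1OV and below 0 with it, 9 the opposite, 8 were above 0 in both and 4 below 0 in both. The same split was not taken over all genes, so these counts are description only. Of all genes tested, 50.5% lay above 0 without Ulk1OV and 48.4% with it.

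**Figure D2:**
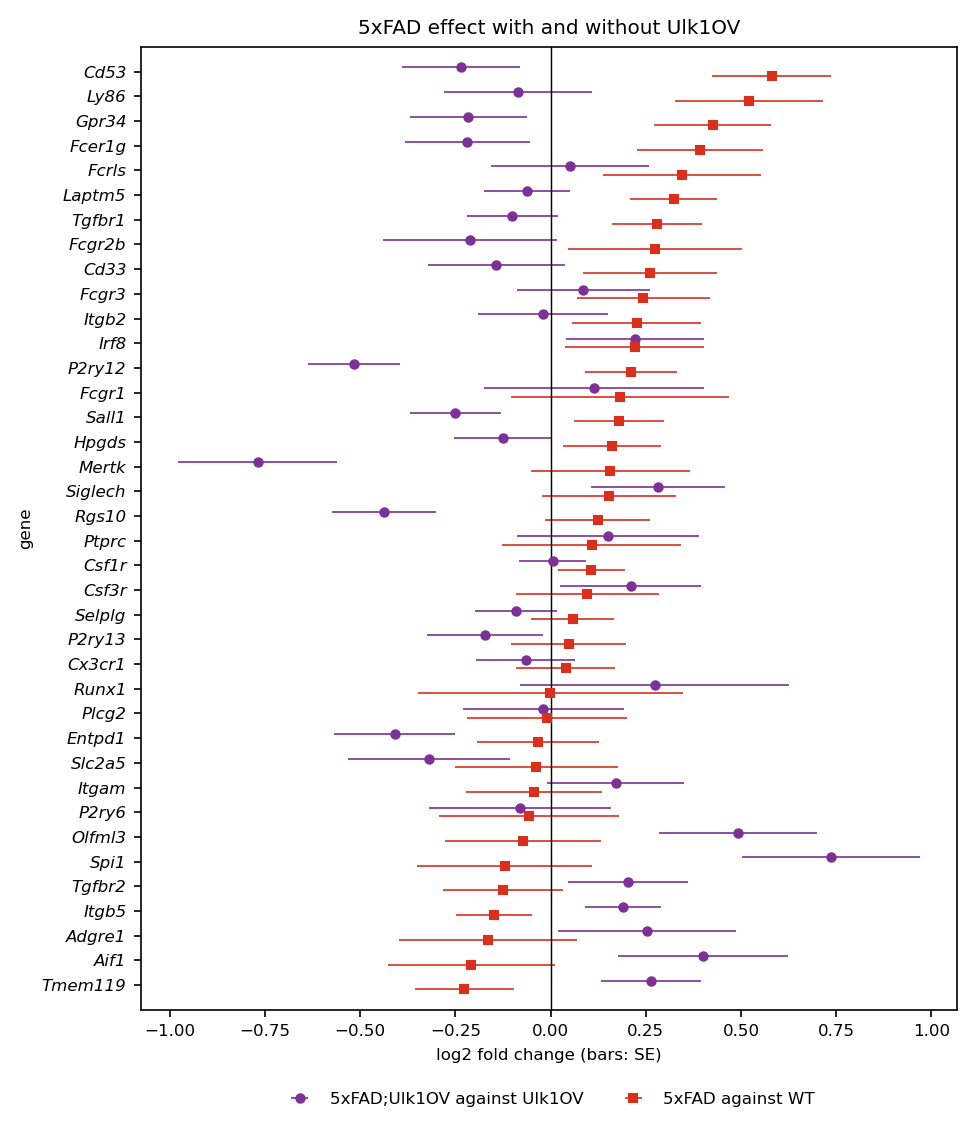
Log2 fold change of each of the 38 genes, in 5xFAD;Ulk1OV against Ulk1OV (circles) and in 5xFAD against WT (squares), with bars for 1 SE, ordered by the second. P2ry12, Mertk and Rgs10 lie left of 0 in the circles, at -0.52, -0.77 and -0.44, and Spi1 lies farthest right at 0.74.

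Among the G protein-coupled receptors, P2ry12 had the smallest adjusted p of all members. It senses ADP from injured cells and guides microglial processes towards them. P2ry12 had 50.1, 46.1 and 46.03 CPM in the 5xFAD;Ulk1OV libraries, 54.04, 75.7 and 66.00 CPM in 5xFAD, 63.4, 68.5 and 71.6 CPM in Ulk1OV and 62.8, 48.7 and 57.7 CPM in WT. All 3 5xFAD;Ulk1OV libraries were below all 3 libraries of 5xFAD and all 3 of Ulk1OV, while the 5xFAD and WT libraries overlapped. The mean was 47.4 ± 2.30 CPM in 5xFAD;Ulk1OV and 67.8 ± 4.14 CPM in Ulk1OV (SD, n = 3 each), a log2 fold change of -0.52 ± 0.12, adjusted p = 0.0290. Against 5xFAD it was -0.46 ± 0.12, adjusted p = 0.0995, which missed the threshold. The interaction was -0.73 ± 0.17, adjusted p = 0.0171, and the averaged 5xFAD effect -0.15 ± 0.085, adjusted p = 0.964. Without the App-low library, the comparison with Ulk1OV gave an adjusted p of 0.0513, and this call was also lost without 5xFAD;Ulk1OV replicate 1 or 2 or Ulk1OV replicate 1 or 3 (adjusted p at least 0.0508). The interaction lost its call without Ulk1OV replicate 3 (adjusted p = 0.0509). When GC content and transcript length were corrected for, the effect against Ulk1OV was -0.28 ± 0.096 with an adjusted p of 0.134, and the interaction was -0.32 ± 0.14 with an adjusted p of 0.191. Both calls were lost there, and both values moved by over 1.5 times.

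Cx3cr1 encodes the receptor for the neuronal chemokine fractalkine. It had 65.9, 73.6 and 56.00 CPM in the 5xFAD;Ulk1OV libraries, 61.4, 84.5 and 62.1 CPM in 5xFAD, 68.3, 68.1 and 68.3 CPM in Ulk1OV and 75.5, 62.1 and 64.8 CPM in WT. The 4 groups overlapped, and its smallest adjusted p over the 6 comparisons was 0.750. Gpr34, a lysophosphatidylserine receptor gene, had 19.2, 18.6 and 17.1 CPM in the 5xFAD;Ulk1OV libraries, 18.5, 27.3 and 22.3 CPM in 5xFAD, 18.8, 20.8 and 24.4 CPM in Ulk1OV and 19.6, 15.96 and 15.2 CPM in WT. Its libraries overlapped in 5xFAD and WT, where the log2 fold change was 0.43 ± 0.15, adjusted p = 0.302, and its interaction of -0.64 ± 0.22 had an adjusted p of 0.0684. The other ADP receptor gene P2ry13 ran from 13.1 to 19.2 CPM, the UDP receptor gene P2ry6 from 2.67 to 5.07 CPM and Adgre1, which encodes the macrophage antigen F4/80, from 5.29 to 12.4 CPM. Their smallest adjusted p-values over the 6 comparisons were 0.50, 0.652 and 0.437.

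Among the growth factor, cytokine and engulfment receptors, Mertk was called. It binds GAS6 and protein S on dying cells and synapses and triggers their uptake, and astrocytes express it too. Mertk had 39.4, 37.6 and 65.96 CPM in the 5xFAD;Ulk1OV libraries, 71.3, 47.8 and 40.96 CPM in 5xFAD, 75.9, 84.3 and 83.5 CPM in Ulk1OV and 49.4, 45.00 and 49.1 CPM in WT. The Ulk1OV libraries were above all libraries of the other 3 groups, and 1 library each of 5xFAD;Ulk1OV (the App-low one) and 5xFAD (replicate 1) stood apart from its own group, at 65.96 and 71.3 CPM. The log2 fold change in 5xFAD;Ulk1OV against Ulk1OV was -0.77 ± 0.21, adjusted p = 0.0466. In Ulk1OV against WT it was 0.76 ± 0.21, adjusted p = 0.0514, just missing the threshold, and without the App-low library it was 0.75 with an adjusted p of 0.0207. The interaction was -0.93 ± 0.30, adjusted p = 0.0554, and -1.21 with an adjusted p of 0.00811 without the App-low library. The averaged 5xFAD effect was -0.31 ± 0.15, adjusted p = 0.964. The call in 5xFAD;Ulk1OV against Ulk1OV was lost without 5xFAD replicate 2, 5xFAD;Ulk1OV replicate 1 or 2, any 1 Ulk1OV library or any 1 WT library (adjusted p = 0.0537 to 0.187), and after the GC and length correction (adjusted p = 0.0860).

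Because astrocytes also express Mertk, their markers are set beside it. The summed level of 8 astrocyte genes was 6474, 6644 and 7963 CPM in 5xFAD;Ulk1OV, 8212, 7559.7 and 6159 CPM in 5xFAD, 7316, 7597 and 7733 CPM in Ulk1OV and 7218, 7052 and 6372 CPM in WT. The same 2 libraries that were high in Mertk within their groups were the 2 highest here. No astrocyte gene was called in any of the 6 comparisons, with list medians of -0.18 in 5xFAD;Ulk1OV against Ulk1OV and 0.084 in Ulk1OV against WT. The part of astrocyte RNA in the Mertk values was not tested.

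Csf1r had 129, 119 and 118 CPM in the 5xFAD;Ulk1OV libraries, 134, 138 and 118 CPM in 5xFAD, 120.4, 133 and 111 CPM in Ulk1OV and 128, 117 and 117 CPM in WT. It was the member with the most counts and the groups overlapped, with a smallest adjusted p of 0.619. Tgfbr1, a kinase subunit of the TGF-beta receptor, had 40.5, 34.8 and 35.8 CPM in the 5xFAD;Ulk1OV libraries, 51.9, 55.5 and 45.5 CPM in 5xFAD, 41.99, 41.00 and 36.2 CPM in Ulk1OV and 48.5, 35.6 and 41.9 CPM in WT. All 3 5xFAD;Ulk1OV libraries were below all 3 5xFAD libraries, and the log2 fold change of -0.46 ± 0.12 (adjusted p = 0.0982) did not pass. Csf3r, the receptor for G-CSF, had 8.05, 6.77 and 10.3 CPM in the 5xFAD;Ulk1OV libraries, 8.08, 7.08 and 5.57 CPM in 5xFAD, 7.86, 7.08 and 6.76 CPM in Ulk1OV and 6.64, 5.99 and 6.75 CPM in WT, with 0.28 ± 0.19, adjusted p = 0.468 in 5xFAD;Ulk1OV against 5xFAD. Tgfbr2, the ligand-binding partner of Tgfbr1, ran from 19.8 to 29.9 CPM, with a smallest adjusted p of 0.358.

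**Figure D3:**
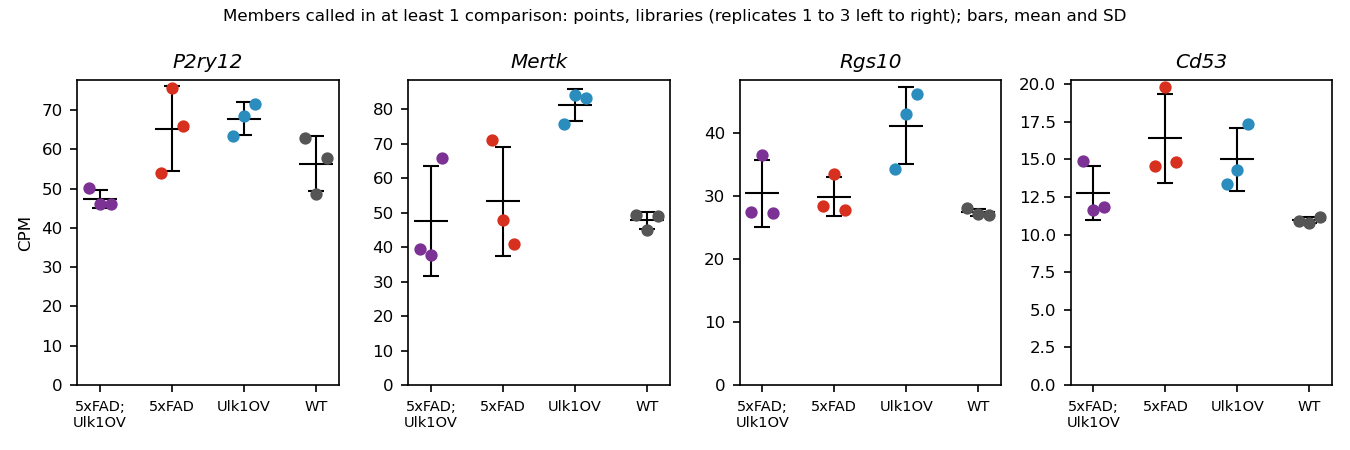
CPM of the 4 genes called in at least 1 comparison, by library (points, replicates 1 to 3 left to right) with the mean and SD of each group (bars). P2ry12 is lowest in 5xFAD;Ulk1OV (46.0 to 50.1 CPM), Mertk and Rgs10 have their highest means in Ulk1OV, and Cd53 is lowest in WT (10.8 to 11.2 CPM).

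None of the 4 transcription factor genes was called. Spi1 encodes PU.1, the factor that macrophage development depends on, and had 7.66, 8.10 and 6.62 CPM in the 5xFAD;Ulk1OV libraries, 5.65, 6.85 and 5.62 CPM in 5xFAD, 3.18, 6.31 and 3.92 CPM in Ulk1OV and 7.82, 5.83 and 6.07 CPM in WT. All 3 5xFAD;Ulk1OV libraries were above all 3 Ulk1OV libraries, at 0.74 ± 0.23, adjusted p = 0.0735. Ulk1OV and WT overlapped, at -0.55 ± 0.23, adjusted p = 0.166, the interaction was 0.86 ± 0.33, adjusted p = 0.101, and the averaged 5xFAD effect 0.31 ± 0.16, adjusted p = 0.964. Spi1 is among the members with few reads, with 51 to 152 counts per library. Irf8, a partner of PU.1, ran from 6.47 to 10.1 CPM, with an averaged 5xFAD effect of 0.22 ± 0.13, adjusted p = 0.964. Sall1, which marks microglia among macrophages, ran from 26.6 to 38.6 CPM and Runx1 from 1.04 to 2.54 CPM, with smallest adjusted p-values of 0.108 and 0.502.

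Of the 9 other surface and membrane genes, Cd53 was called. It encodes a tetraspanin of leukocytes. Cd53 had 14.9, 11.6 and 11.8 CPM in the 5xFAD;Ulk1OV libraries, 14.5, 19.8 and 14.8 CPM in 5xFAD, 13.4, 14.3 and 17.4 CPM in Ulk1OV and 10.9, 10.8 and 11.2 CPM in WT. The WT libraries spanned 10.8 to 11.2 CPM, and all 3 5xFAD and all 3 Ulk1OV libraries were above them. The log2 fold change was 0.58 ± 0.16, adjusted p = 0.235 in 5xFAD against WT and -0.23 ± 0.15 with an adjusted p of 0.370 in 5xFAD;Ulk1OV against Ulk1OV, and neither passed. The difference between them did, with an interaction of -0.82 ± 0.22, adjusted p = 0.0296. It was lost without the App-low library (adjusted p = 0.0547), without 5xFAD replicate 2, 5xFAD;Ulk1OV replicate 2, Ulk1OV replicate 3 or WT replicate 1 or 2 (adjusted p up to 0.0856), and after the GC and length correction (-0.47 ± 0.19, adjusted p = 0.171).

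Tmem119, a membrane protein gene used to tell microglia from blood-derived macrophages, had 40.01, 36.98 and 40.2 CPM in the 5xFAD;Ulk1OV libraries, 35.8, 35.3 and 29.5 CPM in 5xFAD, 28.7, 38.6 and 30.3 CPM in Ulk1OV and 45.2, 37.97 and 34.7 CPM in WT. All 3 5xFAD;Ulk1OV libraries were above all 3 5xFAD libraries (0.22 ± 0.13, adjusted p = 0.404). The groups overlapped in the other comparisons. Effects were -0.23 ± 0.13, adjusted p = 0.50 in 5xFAD against WT, 0.26 ± 0.13, adjusted p = 0.229 in 5xFAD;Ulk1OV against Ulk1OV and -0.27 ± 0.13, adjusted p = 0.223 in Ulk1OV against WT. The interaction of 0.49 ± 0.18 (adjusted p = 0.0963) had the opposite sign to that of P2ry12.

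Entpd1, also called CD39, breaks down ATP and the ADP that P2ry12 senses, and had 14.8, 18.4 and 15.9 CPM in the 5xFAD;Ulk1OV libraries, 19.2, 15.05 and 11.7 CPM in 5xFAD, 19.7, 22.9 and 22.5 CPM in Ulk1OV and 15.1, 16.9 and 15.03 CPM in WT. All 3 Ulk1OV libraries were above all 3 WT libraries (0.47 ± 0.16, adjusted p = 0.0941) and above all 3 5xFAD;Ulk1OV libraries. The averaged 5xFAD effect was -0.22 ± 0.11, adjusted p = 0.964. Laptm5, a lysosomal membrane protein gene of leukocytes, had 53.8, 55.7 and 48.6 CPM in the 5xFAD;Ulk1OV libraries, 59.8, 67.7 and 56.7 CPM in 5xFAD, 55.7, 57.6 and 51.9 CPM in Ulk1OV and 55.4, 51.4 and 40.4 CPM in WT, with no overlap between 5xFAD and WT (0.32 ± 0.11, adjusted p = 0.289). Cd33, an inhibitory receptor gene for sialic acid, had 9.61, 10.9 and 7.46 CPM in the 5xFAD;Ulk1OV libraries, 10.9, 15.8 and 11.96 CPM in 5xFAD, 10.7, 9.73 and 10.5 CPM in Ulk1OV and 12.6, 9.70 and 9.98 CPM in WT and a log2 fold change of -0.47 ± 0.18, adjusted p = 0.203 in 5xFAD;Ulk1OV against 5xFAD. Siglech, a receptor gene of the same Siglec family, had 26.2, 25.4 and 23.6 CPM in the 5xFAD;Ulk1OV libraries, 26.2, 33.4 and 19.8 CPM in 5xFAD, 19.03, 22.2 and 20.5 CPM in Ulk1OV and 24.9, 27.7 and 18.7 CPM in WT, with an averaged 5xFAD effect of 0.22 ± 0.12, adjusted p = 0.964. Selplg ran from 37.4 to 50.1 CPM, Fcrls from 21.3 to 39.3 CPM and the fructose transporter gene Slc2a5 from 6.26 to 12.5 CPM, with smallest adjusted p-values of 0.567, 0.521 and 0.352.

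Integrins and CD45 gave no call. Itgb5 had 85.3, 84.2 and 85.5 CPM in the 5xFAD;Ulk1OV libraries, 80.3, 70.9 and 62.4 CPM in 5xFAD, 69.7, 77.9 and 75.95 CPM in Ulk1OV and 86.3, 80.5 and 69.98 CPM in WT. Its 5xFAD;Ulk1OV libraries were above all 5xFAD libraries, at 0.26 ± 0.10, adjusted p = 0.214, and above all Ulk1OV libraries. In 5xFAD against WT it was -0.15 ± 0.10, adjusted p = 0.571, and the interaction was 0.34 ± 0.14, adjusted p = 0.131. Itgb2 (CD18) ran from 7.36 to 12.8 CPM, its partner Itgam (CD11b) from 7.30 to 11.1 CPM and Ptprc from 3.97 to 7.86 CPM, with smallest adjusted p-values of 0.428, 0.372 and 0.507. Itgam shares 68.7% of its exon bases with the annotated gene Gm49368 on the same strand, and Csf1r 15.1% with Hmgxb3 on the opposite strand, so their counts are uncertain.

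The 4 Fc receptor genes gave no call. Fcer1g, the signalling chain of several Fc receptors, ran from 10.4 to 18.9 CPM, Fcgr3 from 17.3 to 28.7 CPM, the inhibitory receptor gene Fcgr2b from 4.99 to 9.16 CPM and the high-affinity receptor gene Fcgr1 from 3.22 to 6.96 CPM. In 5xFAD against WT all 4 had log2 fold changes above 0, with a median of 0.26, and in the interaction all 4 were below 0, with a median of -0.32. Their smallest adjusted p was 0.0992, for the Fcer1g interaction of -0.61 ± 0.23, which became -0.87 ± 0.21 with an adjusted p of 0.0313 after the GC and length correction. Fcgr2b and Fcgr3 have similar extracellular parts, and reads may be split between them.

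Among intracellular and secreted proteins, Rgs10 was called. Rgs10 had 27.4, 36.6 and 27.3 CPM in the 5xFAD;Ulk1OV libraries, 28.4, 33.4 and 27.8 CPM in 5xFAD, 34.3, 43.01 and 46.1 CPM in Ulk1OV and 28.1, 27.1 and 27.1 CPM in WT. All 3 Ulk1OV libraries were above all 3 WT libraries, which spanned 27.1 to 28.1 CPM. The mean was 41.2 ± 6.13 CPM in Ulk1OV and 27.4 ± 0.595 CPM in WT (SD, n = 3 each), a log2 fold change of 0.59 ± 0.14, adjusted p = 0.0343. In 5xFAD;Ulk1OV against Ulk1OV it was -0.44 ± 0.14, adjusted p = 0.0705, and these libraries overlapped. The call in Ulk1OV against WT was lost when Ulk1OV replicate 2 or 3 or any 1 WT library was left out, with adjusted p-values from 0.0594 to 0.161. After the GC and length correction Rgs10 was called in Ulk1OV against WT (0.60 ± 0.12, adjusted p = 0.0267), in 5xFAD;Ulk1OV against Ulk1OV (-0.51 ± 0.12, adjusted p = 0.0419) and in the interaction (-0.73 ± 0.17, adjusted p = 0.0288).

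Olfml3, a secreted matrix protein gene, had 25.9, 27.97 and 32.2 CPM in the 5xFAD;Ulk1OV libraries, 30.4, 33.8 and 25.7 CPM in 5xFAD, 14.7, 28.7 and 17.7 CPM in Ulk1OV and 28.7, 37.5 and 28.4 CPM in WT. Ulk1OV replicates 1 and 3 were the lowest of the 12. The log2 fold change was -0.63 ± 0.21, adjusted p = 0.0858 in Ulk1OV against WT and 0.49 ± 0.21, adjusted p = 0.160 in 5xFAD;Ulk1OV against Ulk1OV. Aif1, which encodes IBA1, the protein stained to show microglia in tissue, had 6.43, 8.21 and 5.68 CPM in the 5xFAD;Ulk1OV libraries, 6.39, 6.63 and 4.52 CPM in 5xFAD, 3.93, 5.66 and 5.78 CPM in Ulk1OV and 5.82, 7.95 and 6.47 CPM in WT. Its Ulk1OV libraries were all below its WT libraries, and 5xFAD and WT overlapped (-0.21 ± 0.22, adjusted p = 0.735). Ly86, whose product binds a Toll-like receptor homologue, ran from 13.5 to 27.1 CPM, the prostaglandin D synthase gene Hpgds from 8.07 to 10.7 CPM and Plcg2, a phospholipase of receptor signalling, from 5.59 to 9.76 CPM, with smallest adjusted p-values of 0.159, 0.320 and 0.969.

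Over the libraries, 5xFAD replicate 2 had the highest level of 17 of the 38 genes, and 31 lay above their mean there, with a median deviation of 0.26 on the log2 scale. WT replicate 3 was lowest in 8 and Ulk1OV replicate 1 in 9. The summed level of the 38 genes was 949.8, 942 and 922 CPM in the 5xFAD;Ulk1OV libraries, 1015, 1112 and 900.4 CPM in 5xFAD, 930.4, 1065 and 982 CPM in Ulk1OV and 1005, 914 and 872 CPM in WT. The 4 groups overlapped in this sum, and the spread within 5xFAD covered most of the whole range. WT replicate 3 and Ulk1OV replicate 1 were also the 2 libraries with much choroid plexus RNA, at 6289 and 4229 CPM summed over 8 of its genes, where the other 10 had 24.3 to 337 CPM. Its part in their low values was not tested.

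**Figure D4:**
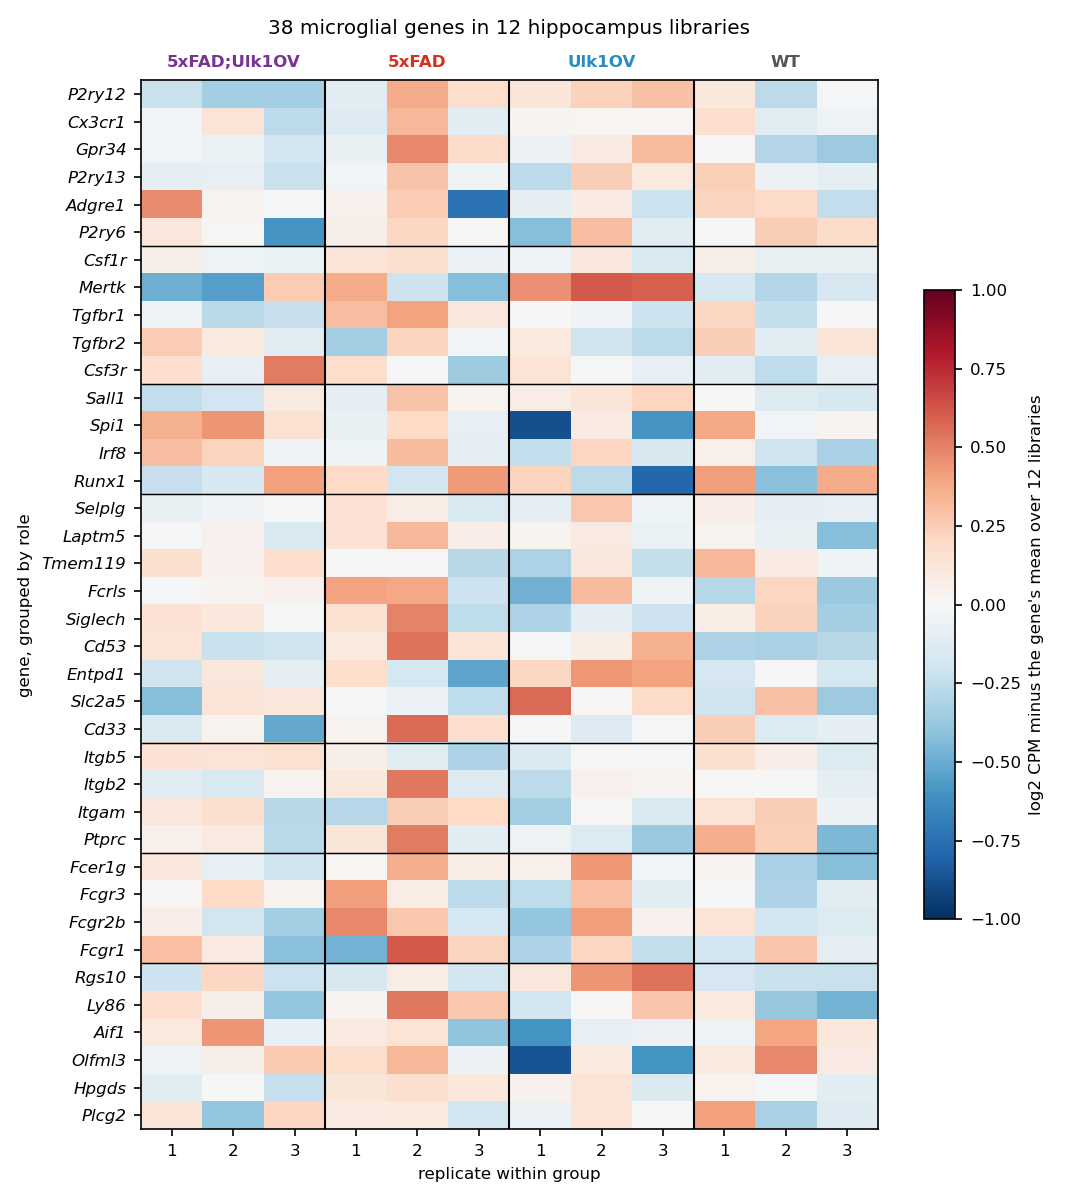
Each of the 38 genes (rows, grouped by role) in each library (columns), as log2 CPM minus the gene's mean over 12 libraries, with red above and blue below the mean. The column of 5xFAD replicate 2 is mostly red, with 31 genes above their mean, and that of WT replicate 3 mostly blue, with 6 above.

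The homeostatic and the general genes were also described apart. With the 5xFAD effect averaged over both backgrounds, 18 of 19 general genes lay above 0, with a median of 0.13, and 9 of 19 homeostatic genes, with a median of -0.013. Of all genes tested 49.7% lay above 0, with a median of -0.00081. These values include the App-low library. No gene of either subset had an unadjusted p under 0.05 there. In 5xFAD;Ulk1OV against Ulk1OV the medians were 0.11 for general and -0.10 for homeostatic genes, and in the interaction -0.0094 and -0.28. The difference between the subsets was not tested.

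Genes that microglia are known to switch on near plaques were set beside the members, 23 of 24 listed genes being tested. In 5xFAD against WT 0 were called, 19 of 23 lay above 0 and the median was 0.23. The 3 smallest p-values belonged to Clec7a at 2.15 ± 0.41 (adjusted p = 0.111), Ccl6 at 1.21 ± 0.23 (adjusted p = 0.111) and Cst7 at 4.55 ± 0.88 (adjusted p = 0.112). With Ulk1OV in both groups, 5xFAD;Ulk1OV against Ulk1OV, 4 rose, the cathepsin D gene Ctsd by 0.59 ± 0.12 (adjusted p = 0.0195), Cst7 by 4.08 ± 0.87 (adjusted p = 0.0218), Ccl6 by 0.94 ± 0.23 (adjusted p = 0.0349) and Spp1 by 1.86 ± 0.50 (adjusted p = 0.0436). This is 17.4% of the list, beside 6.1% of all genes. Without the App-low library 6 of 23 rose there, these 4 with Cd68 and Ctsz, beside 947 genes up and 632 down of 17603. In the averaged 5xFAD effect 3 then rose (Clec7a, Ccl6 and Cst7), beside 7 genes up and 2 down. Averaged over both backgrounds with all libraries, all 23 lay above 0, with a median of 0.32 and 0 calls, while the members' median was 0.061. Without the App-low library these medians were 0.42 and 0.083. Spp1 and Ctsd had interactions of 2.44 ± 0.69 and 0.55 ± 0.17 (adjusted p = 0.0349 and 0.0481). These 2 calls are 8.7% of the list, below the 12.8% of all genes. Without the App-low library the 2 interactions were 2.85 and 0.68 (adjusted p = 0.00980 and 0.0162).

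Of 25 genes for ligands, partners and downstream proteins of these receptors, 23 were tested. In 5xFAD;Ulk1OV against Ulk1OV 4.35% of them were called, beside 6.1% of all genes. In Ulk1OV against WT it was 4.35% beside 5.17%, and in the interaction 8.7% beside 12.8%. Each share of the list was below that of all genes. Smad7, which inhibits TGF-beta signalling, was higher in 5xFAD;Ulk1OV than in Ulk1OV by 0.57 ± 0.15 (adjusted p = 0.0411) and lower in Ulk1OV than in WT, at -0.56 ± 0.15 (adjusted p = 0.0481), with an interaction of 0.87 ± 0.21 (adjusted p = 0.0190). Without the App-low library the first of these had an adjusted p of 0.0792, and the other two passed. Itgb8, a subunit of an integrin that activates TGF-beta, had an interaction of -0.68 ± 0.18 (adjusted p = 0.0272), and -0.78 without the App-low library (adjusted p = 0.0110). Tgfb1 did not pass, with an interaction of 0.98 ± 0.31 (adjusted p = 0.0555). The CSF1R ligand gene Il34 had an interaction of 0.65 ± 0.28 (adjusted p = 0.136), Gas6 an averaged 5xFAD effect of -0.17 ± 0.069 (adjusted p = 0.964) and Cx3cl1 an interaction of 0.10 ± 0.18 (adjusted p = 0.754).

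Other macrophages and blood cells express many of the general genes, so their markers were measured too. The summed level of 10 border macrophage genes was 36.2, 44.2 and 29.8 CPM in 5xFAD;Ulk1OV, 32.2, 36.2 and 38.5 CPM in 5xFAD, 31.8, 33.98 and 23.2 CPM in Ulk1OV and 61.9, 49.3 and 31.7 CPM in WT, with 0 of 10 called in any comparison and a median interaction of 0.80. Neutrophil and monocyte genes summed to 2.45 to 10.9 CPM and lymphocyte genes to 0.872 to 3.57 CPM, with 6 of 10 and 8 of 10 under 1 CPM in every library and none at 0 in all. Fibroblast genes summed to 311, 322 and 157 CPM in 5xFAD;Ulk1OV, 111, 211 and 196 CPM in 5xFAD, 126, 165 and 149.6 CPM in Ulk1OV and 316, 248 and 228 CPM in WT. Of 8 tested, Slc6a13, Col1a1, Col3a1 and Col1a2 were called higher in 5xFAD;Ulk1OV than in Ulk1OV, these 4 with Igfbp2 and Pdgfrb lower in Ulk1OV than in WT, and the same 6 had positive interactions. The endothelial genes Cldn5, Tek and Cdh5 (3 of 8) also had positive interactions. So did the B cell gene Cd79a (1 of 2 lymphocyte genes tested) and the red blood cell gene Hbb-bt (1 of 5). The neuronal gene Map2 had a negative one (1 of 10), where 12.8% of all genes were called. In 5xFAD;Ulk1OV against Ulk1OV 1 lymphocyte and 1 red blood cell gene were called higher, beside 6.1% of all genes called. In Ulk1OV against WT 1 endothelial and 1 red blood cell gene were called lower, beside 5.17%. The part of these tissues in the members' values was not tested.

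Base composition moved with the interaction. Among the 13 members with the lowest GC content of their longest transcript (37.1% to 47.2%) the median interaction was -0.38, among the 12 in between -0.15 and among the 13 highest (51.7% to 59.1%) -0.0094. All tested genes in the same GC ranges had medians of -0.27, -0.018 and 0.23. After trends over GC content and length were removed library by library, the members' medians were -0.0070, -0.17 and -0.16. P2ry12 and Cd53, at 38.6% and 39.95% GC, lost their interaction calls, and Rgs10, Fcer1g and Laptm5, at 50.7%, 51.8% and 56.0%, were called instead, at -0.73 ± 0.17, -0.87 ± 0.21 and -0.65 ± 0.16 (adjusted p = 0.0288, 0.0313 and 0.0314). These are 3 of the 38, beside 574 positive and 337 negative interactions called among the 17111 genes of the corrected fit. No member was called in the interaction both before and after this correction.

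**Figure D5:**
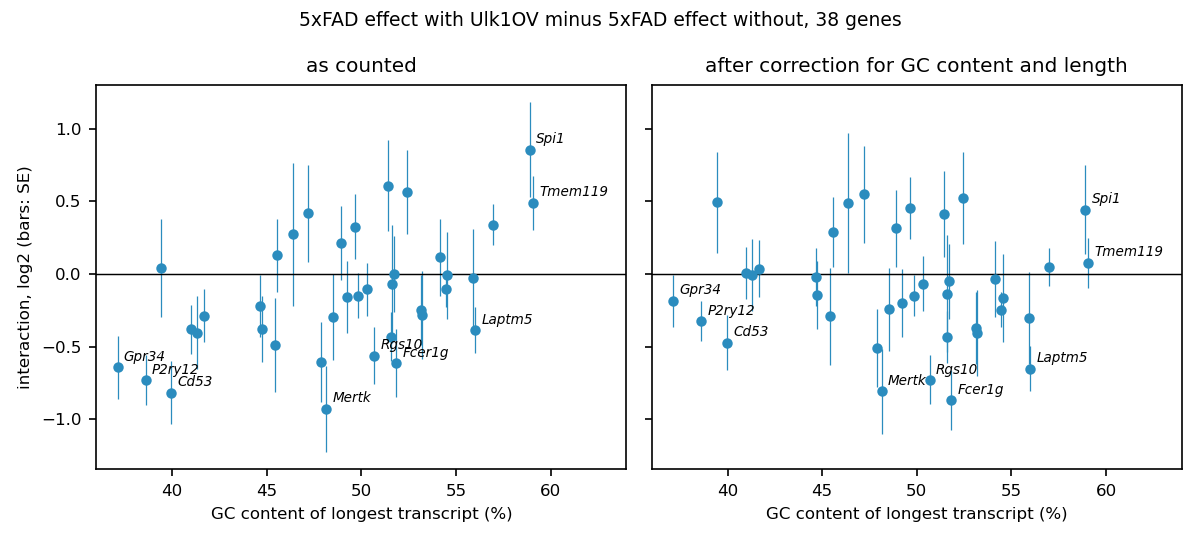
Interaction of each of the 38 genes (log2, bars 1 SE) against the GC content of its longest transcript, as counted (left) and after correction for GC content and length (right). On the left the 13 genes of lowest GC have a median of -0.38 and P2ry12 and Cd53 lie at -0.73 and -0.82, and on the right they lie at -0.32 and -0.47.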

How the data were processed

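The values deposited by the authors are raw counts per gene in 12 hippocampus libraries (whole numbers with different totals). Per the submitters' processing notes, HISAT2 and featureCounts were used with mm10, and the library kit was NEBNext Ultra, per the labels. Neither the annotation nor the use of strand in counting is stated, and overlapping genes and paralogs are uncertain. No molecular identifiers are given, so tests cannot separate PCR copies.

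From the counts, edgeR 4.0.16 in R 4.3.3 filtered genes by its default (17227 kept), scaled by TMM and fitted its quasi-likelihood test to all 12 libraries with 1 mean per group. It gave 4 comparisons of pairs of groups, the averaged 5xFAD effect and the interaction, with p-values adjusted over all genes tested. The fit was tested on simulated data. DESeq2 1.42.0 was an alternative. GC content and lengths came from GENCODE M21 (GRCm38, the same assembly as mm10), found for 17111 of 17227 genes and all 38 members, and the correction removed each library's loess trend (span 0.4). Promoters came from RefSeq. Members and lists were chosen with earlier results of these data known. Every member called and the 3 with the smallest p per direction were given in full, and P2ry12, Tmem119, Cx3cr1, Csf1r and Aif1 by library. Replicate pairs differed beyond sampling noise (chi-square per degree of freedom 6.78 to 27.5).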

Additional observations from a re-analysis of the deposited data

Results flagged for a closer look

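The 2 members below were called in the test of whether the 5xFAD effect differs with and without Ulk1OV. They are 5.26% of the 38, below the 12.8% of all genes called there. P2ry12 had an interaction of -0.73 (edgeR adjusted p = 0.0171), with a 5xFAD effect of -0.52 ± 0.12 with Ulk1OV and 0.21 ± 0.12 without it. Cd53 had an interaction of -0.82 (edgeR adjusted p = 0.0296), with a 5xFAD effect of -0.23 ± 0.15 with Ulk1OV and 0.58 ± 0.16 without it. Both calls were lost after the correction for GC content and length. Without the App-low library, replicate 3 of 5xFAD;Ulk1OV, the Cd53 interaction was also lost (adjusted p = 0.0547), and the P2ry12 interaction passed. Over the alternatives, the Cd53 interaction was called in 10 of 17 and the P2ry12 interaction in 15 of 17. With 3 libraries a group, no single library was tested as an outlier.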

How the results depend on the processing

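No called value changed sign under the alternatives tried, while members' medians in 5xFAD;Ulk1OV against Ulk1OV and in Ulk1OV against WT did when some libraries were left out. Genes called in 5xFAD against WT (0 in edgeR) were 136 by DESeq2, 551 with no filter on low counts and 2 with only the libraries compared, and in the averaged effect (0) 16 by DESeq2 and 202 with no filter. In 5xFAD;Ulk1OV against 5xFAD (8) they were 713 by DESeq2, 18 with DESeq2 size factors, 901 with no filter, and 0 after the GC and length correction or with only the libraries compared. In 5xFAD;Ulk1OV against Ulk1OV (1051) they were 1994 by DESeq2, 2097 with no filter, 492 after the correction and 430 with only the libraries compared. In Ulk1OV against WT (891) they were 1843 by DESeq2, 2079 with no filter and 583 after the correction, and in the interaction (2197) 911 after the correction. Members called in 5xFAD against WT and in the averaged effect (0 each) were 2 and 1 with no filter, and in 5xFAD;Ulk1OV against 5xFAD (0) 2 by DESeq2 and 2 with no filter. In 5xFAD;Ulk1OV against Ulk1OV (2) they were 4 by DESeq2, 5 with no filter, and 1 after the correction or with only the libraries compared. In Ulk1OV against WT (1) they were 3 by DESeq2, 4 with no filter and 2 with only the libraries compared, and in the interaction (2) 4 by DESeq2 and 6 with no filter. With only the libraries compared, 278 genes were up and 508 down of 16467 in Ulk1OV against WT. With no filter, 1650 interactions were positive and 1187 negative of 31643 genes. That fit includes genes of low count, and its smallest edgeR adjusted p in 5xFAD against WT was 1.4e-256, against 0.111 in the main fit. Leaving out each of the 12 libraries gave 0 to 39 genes in 5xFAD against WT, 0 to 9 in the averaged effect, 0 to 260 in 5xFAD;Ulk1OV against 5xFAD, 0 to 1629 in 5xFAD;Ulk1OV against Ulk1OV, 0 to 1294 in Ulk1OV against WT and 974 to 2596 in the interaction. Members called ran from 0 to 0, 0 to 0, 0 to 1, 0 to 3, 0 to 2 and 0 to 5 in that order, and their medians from 0.035 to 0.17, 0.017 to 0.098, -0.17 to -0.039, -0.073 to 0.048, -0.068 to 0.091 and -0.25 to -0.035. P2ry12 was called in 5xFAD;Ulk1OV against Ulk1OV in 12 of 18 alternatives and in the interaction in 15 of 17, Mertk in 7 of 18, Cd53 in 10 of 17 and Rgs10 in 13 of 18. Over all members with full statistics, 572 alternative values kept their side of the threshold, 33 newly passed and 31 no longer passed. The cause of these changes was not tested. Fits with only the libraries compared give no separate value for the averaged effect and the interaction. Depth limits members such as Runx1, at 19 to 46 counts per library.

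Replicate numbers did not pair the libraries: libraries with the same number had correlations of deviations from -0.18 to 0.22 (median -0.0088, 18 pairs), against -0.21 to 0.22 for different numbers (36 pairs), and 5 of 12 libraries had their highest mean correlation with their own number. With the replicate number as a block, 0 genes were called in 5xFAD;Ulk1OV against 5xFAD (8 without it) and 2 members in Ulk1OV against WT (1 without it), and the block changed the other counts of genes called to 1206, 1033 and 2259, in 5xFAD;Ulk1OV against Ulk1OV, Ulk1OV against WT and the interaction.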
